A study of Mus musculus with 3 samples.

Results

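The 7 genes described here, Egr1, Egr2, Egr3, Egr4, Nr4a1, Nr4a2 and Nr4a3, encode 2 families of transcription factors whose genes are switched on quickly when a cell is stimulated. They were chosen by symbol from the deposited table of raw counts, where each had 1 row, among 55293 gene symbols in all. Their levels were read from 3 single-cell RNA libraries of mouse pituitary, one each for TpitKO, TpitHT and TpitWT. The gene Tbx19 encodes Tpit, a T-box factor needed by the pituitary cells that make pro-opiomelanocortin (Pomc) to differentiate. The labels give the genotypes by these names alone, KO and WT being the usual short forms of knockout and wild type. They do not spell out HT, and they give no age, strain, sex or number of mice per library, nor how the allele was made. Tissue of every genotype was digested with trypsin at 37 °C for 10 min, and dead cells were removed by a propidium iodide sort. On GRCm38 the genes lie at chr18:34859823-34864984 (Egr1, plus strand), chr10:67535475-67542188 (Egr2, plus), chr14:70077203-70082614 (Egr3, plus), chr6:85511121-85513589 (Egr4, minus), chr15:101254269-101274795 (Nr4a1, plus), chr2:57106830-57124003 (Nr4a2, minus) and chr4:48045153-48086447 (Nr4a3, plus), and all are annotated as protein coding.

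The libraries held 13413 TpitKO, 12839 TpitHT and 11222 TpitWT cells, with means of 9934.6, 11868.7 and 9560.6 counts per cell. Tbx19 had 0.690, 12.4 and 17.6 CPM, the gene's share of all counts of the same cells on the usual scale, in the TpitKO, TpitHT and TpitWT libraries, but the deleted stretch of the gene is not given in the labels. Between 36 and 40 cell barcodes were shared by each pair of libraries. The authors had placed the cells in 21 clusters, numbered 0 to 20. Cluster 6 had all 5 corticotrope markers at least 2-fold higher than in the rest of the cells, among them Avpr1b and Crhr1, and is called corticotrope-like. Cluster 7 had all 6 melanotrope markers, led by Oacyl and Pax7, and is called melanotrope-like. Cluster 6 held 0 TpitKO, 1037 TpitHT and 1081 TpitWT cells, and cluster 7 held 0 TpitKO, 732 TpitHT and 730 TpitWT cells. All values below are counts summed over the cells of a cluster and genotype. With 1 library per genotype no difference was tested, and each interval is an exact 95% interval that covers counting error only. Differences between mice or preparations cannot be told apart from those between genotypes. A gene was called higher or lower where the ratio of CPM + 1 was at least 2-fold, among genes with at least 20 counts over both sides and 5 CPM on either. The clusters had been made from the expression of these same cells, so a cluster set against other cells is a description.

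Egr proteins are zinc-finger factors that bind GC-rich sites, and their genes respond to growth factor and calcium signals through serum response factor and CREB. Nr4a proteins are orphan nuclear receptors that act without a known natural ligand and bind NBRE elements, and their genes are induced by cyclic AMP through CREB. In the pituitary, corticotropin-releasing hormone raises cyclic AMP in corticotropes, and Nr4a1 then drives the Pomc promoter. Melanotropes are held back by dopamine through the Drd2 receptor. In gonadotropes, Egr1 works with Nr5a1 on the Lhb promoter.

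Egr4 and Egr3 were concentrated in the melanotrope-like cluster 7. Egr4 stood at 535 CPM in cluster 7, against 9.51 CPM in the cells outside clusters 6 and 7 of the TpitHT library, a 56.3-fold ratio (95% interval 52.9 to 59.9). In the TpitWT library Egr4 was at 548 CPM in cluster 7 and 7.05 CPM in the other cells, a ratio of 77.8 (71.5 to 84.7). Egr3 was at 197 CPM in cluster 7 and 3.80 CPM in the other TpitHT cells, and at 206 CPM in cluster 7 and 4.27 CPM in the other TpitWT cells. The Egr3 ratios were 51.9 (46.9 to 57.4) in TpitHT and 48.3 (43.1 to 54.2) in TpitWT. Cluster 7 alone gave 69.2% of all Egr4 counts in the TpitHT library and 75.1% in the TpitWT library, and 72.7% and 69.2% of all Egr3 counts in the TpitHT and TpitWT libraries. Egr4 is best known from male germ cells and neurons, and Egr3 from muscle spindles and lymphocytes.

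Nr4a1 and Nr4a2 were higher in both Pomc clusters, 6 and 7, than in the pooled other cells. In TpitHT, Nr4a1 was at 353 CPM in cluster 6 and 340 CPM in cluster 7, against 106 CPM in other cells. In TpitWT it was at 216 CPM in cluster 6 and 264 CPM in cluster 7, against 96.8 CPM in other cells. Nr4a2, known for its role in midbrain dopamine neurons, was at 412.5 CPM in cluster 6 and 508.5 CPM in cluster 7, against 145 CPM in other TpitHT cells. In TpitWT, Nr4a2 was at 325 CPM in cluster 6 and 544 CPM in cluster 7, against 161 CPM in other cells. The ratios of both genes were largest in TpitHT cluster 6 for Nr4a1, at 3.32 (3.20 to 3.45), and TpitHT cluster 7 for Nr4a2, at 3.503 (3.39 to 3.62). Single clusters outside 6 and 7 reached such levels too. In cluster 11 of TpitWT Nr4a1 was at 226 CPM (178 to 284), with an interval that overlapped those of clusters 6 and 7. Those cells also held Pomc at 19954 CPM and Tbx19 at 61.1 CPM. Over all libraries, cluster 11 had 3 of 6 melanotrope markers at least 2-fold higher than the rest. In cluster 12 Nr4a2 was at 482.5 CPM (425.0 to 545.7) in TpitHT and 434 CPM (379 to 495) in TpitWT. Both values lay above that of cluster 6 in the same library. The intervals of clusters 12 and 6 overlapped in TpitHT, where cluster 6 reached 425.5 CPM, and were separate in TpitWT. In cluster 7 the ratios of the receptor genes over the other cells were smaller than those of Egr3 and Egr4.

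Promoter sequence is shown for the members with RefSeq entries that were higher in cluster 7 of at least 1 library. The lines give the 250 bases before the start site on the gene's own strand, 5′ to 3′, from RefSeq on GRCm38.p6. Capitals mark the half-site of the cyclic AMP response element (CRE), TGACG or its reverse complement CGTCA. Egr4 lies at chr6:85513590-85513839 on the minus strand, Nr4a1 at chr15:101266596-101266845 on the plus strand, Nr4a2 at chr2:57124004-57124253 on the minus strand, and Nr4a3 at chr4:48045055-48045304 on the plus strand. The Nr4a1 start site used by RefSeq lies inside the gene span given above.
Egr4: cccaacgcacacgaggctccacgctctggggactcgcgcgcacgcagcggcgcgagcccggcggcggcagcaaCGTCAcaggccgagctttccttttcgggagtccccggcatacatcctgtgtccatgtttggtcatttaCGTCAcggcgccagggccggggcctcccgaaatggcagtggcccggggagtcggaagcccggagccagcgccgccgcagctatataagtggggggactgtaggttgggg
Nr4a1: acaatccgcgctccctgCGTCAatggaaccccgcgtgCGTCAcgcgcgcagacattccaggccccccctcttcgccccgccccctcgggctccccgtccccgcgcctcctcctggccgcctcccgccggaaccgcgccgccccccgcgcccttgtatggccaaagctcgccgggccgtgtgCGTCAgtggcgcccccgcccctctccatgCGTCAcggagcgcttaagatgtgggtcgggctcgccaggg
Nr4a2: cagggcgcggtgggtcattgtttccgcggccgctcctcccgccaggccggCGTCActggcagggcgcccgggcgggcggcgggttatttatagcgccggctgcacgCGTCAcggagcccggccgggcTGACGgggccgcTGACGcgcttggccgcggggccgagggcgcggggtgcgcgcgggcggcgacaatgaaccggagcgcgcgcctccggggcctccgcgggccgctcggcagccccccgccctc
Nr4a3: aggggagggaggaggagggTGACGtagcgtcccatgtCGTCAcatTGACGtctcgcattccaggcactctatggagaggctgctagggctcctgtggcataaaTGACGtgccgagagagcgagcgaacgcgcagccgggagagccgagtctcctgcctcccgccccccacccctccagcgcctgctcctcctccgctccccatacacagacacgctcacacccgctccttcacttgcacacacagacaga

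The RefSeq promoter table covered 5 of the 7 members, with 5 entries for Egr2 and 1 for each of the others. Egr1 and Egr3 had no entry. Windows of 250 bases before and 50 after each start site were searched on both strands. The CRE half-site occurred 4 times in each of the Nr4a1, Nr4a2 and Nr4a3 windows. Over all 32851 promoter windows, 20.8% held at least 1 half-site and 0.231% held 4 or more. In Egr4 the half-site occurred 2 times, first bases at -177 and -109 from the start site, and 5.01% of all windows held 2 or more. Of the 5 Egr2 windows, which overlap one another in part, 3 held 2 half-sites and 4 held a CArG box. That box, the serum response factor element, was in 1.63% of all windows. The 3 windows with half-sites overlap, and they share the same 2 half-sites and the same CArG box. Their matches are thus not separate sites. The palindromic CRE, TGACGTCA, was in 0 of the members' windows and in 1.79% of all windows. The EGR site GCGNGGGCG occurred 1 time each in the Nr4a1 and Nr4a2 windows, at -60 and -74, against 5.55% of all windows with a match. The NBRE, AAAGGTCA, was in 0 of the members' windows and in 1.51% of all windows. Every palindromic CRE contains the half-site, so those searches overlap, and a match is a description of the letters only.

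**Figure D1:**
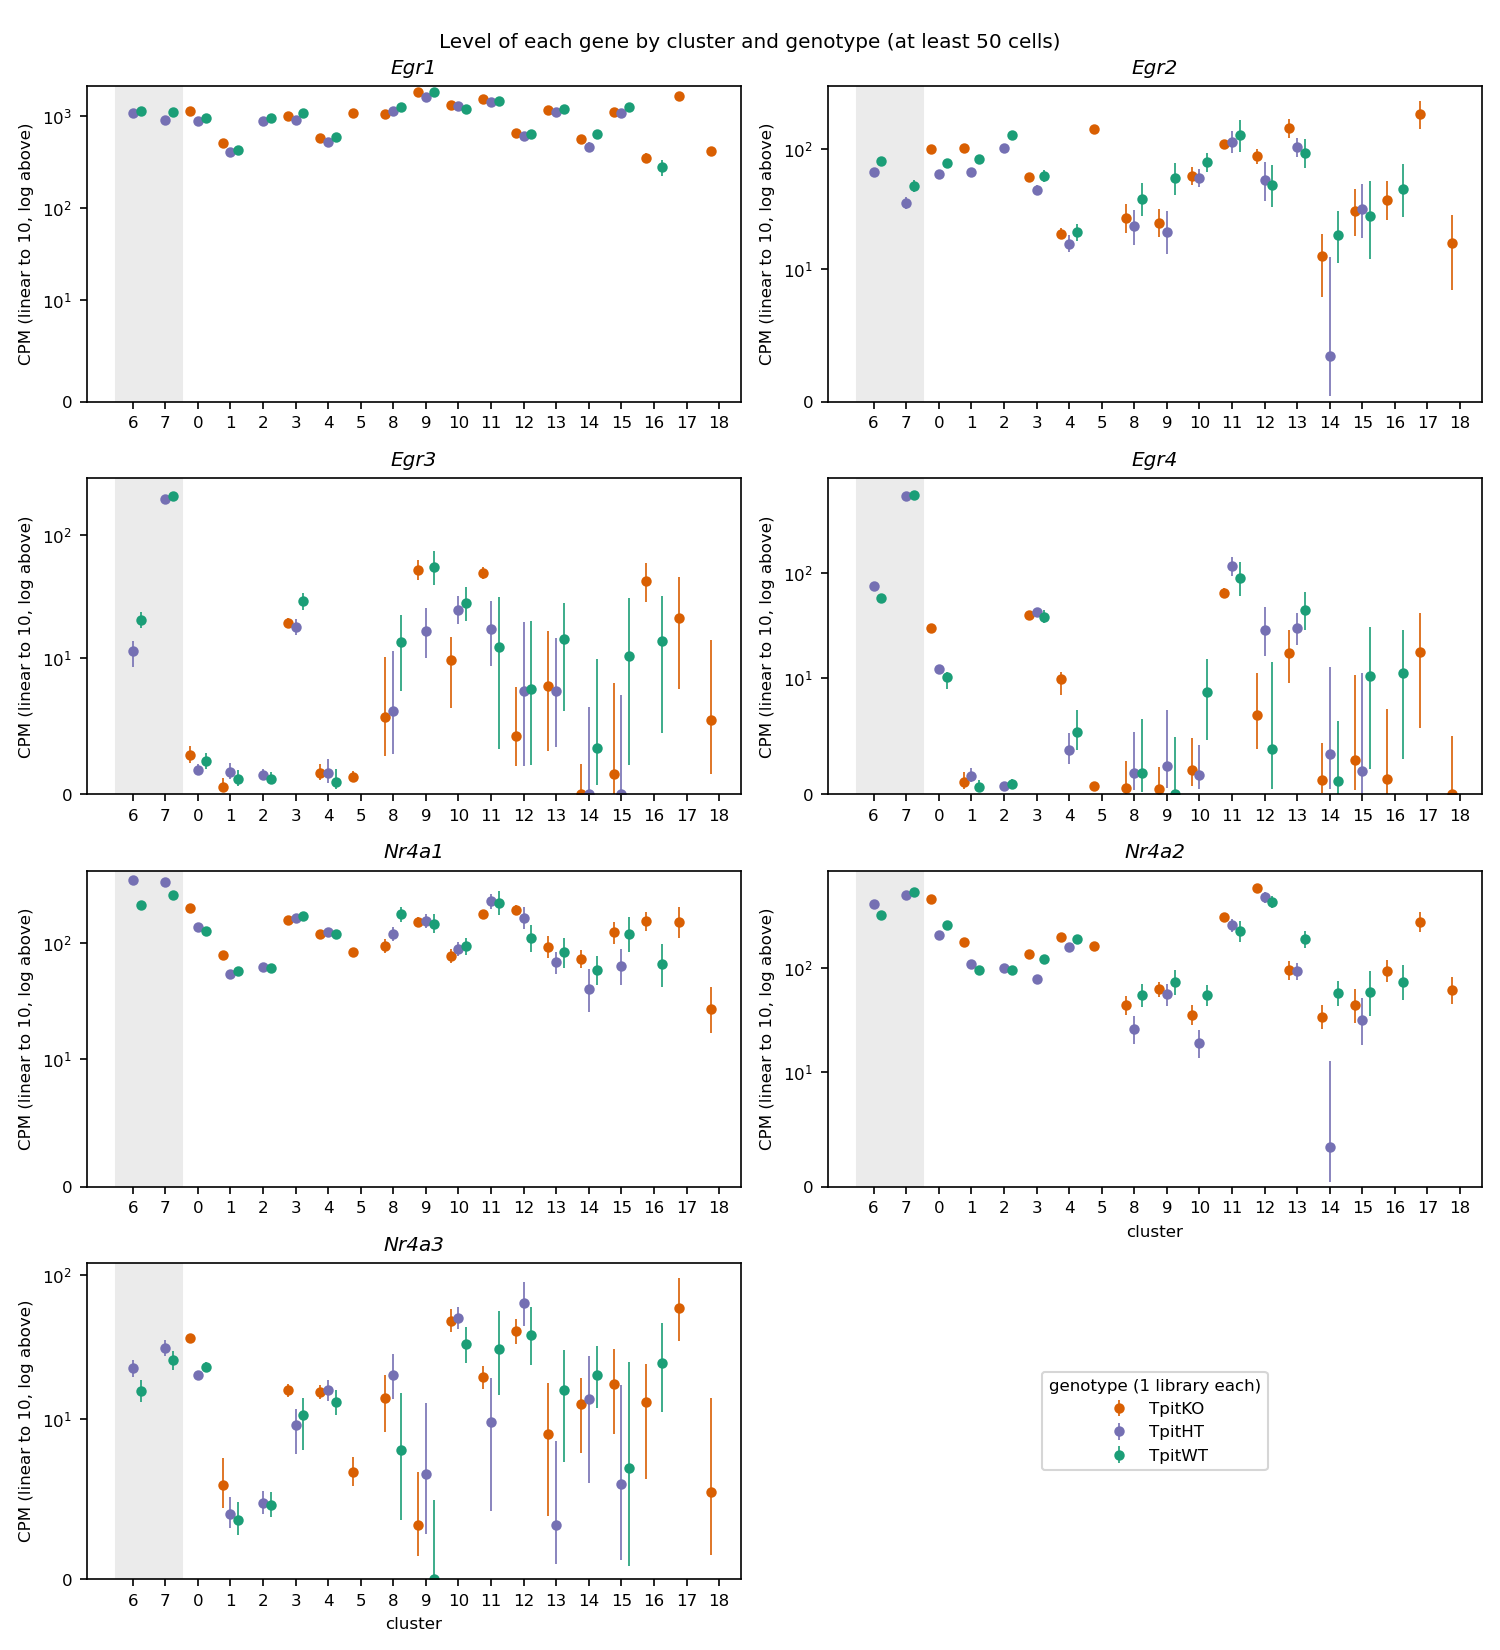
Level of each of the 7 genes in CPM (linear up to 10, log above) by cluster, for TpitKO, TpitHT and TpitWT combinations of at least 50 cells, with clusters 6 and 7 shaded. Points are 1 library each and bars are exact 95% Poisson intervals. Egr3 and Egr4 peak in cluster 7, at 197 and 535 CPM in TpitHT, while Egr1 stays between 275 and 1798.5 CPM in every cluster shown.

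Of the 7 members, 4 were at least 2-fold higher in cluster 6 than in other cells of the TpitHT library, and 9.95% of all genes tested were. In TpitWT it was also 4, against 13.3% of all genes. In cluster 7 it was 5 members in TpitHT, against 10.1% of all genes, and 4 in TpitWT, against 12.6%. These were Egr3, Egr4, Nr4a1 and Nr4a2 in each case, with Nr4a3 added in cluster 7 of TpitHT. The median gene was itself 0.37 (cluster 6) and 0.31 (cluster 7) higher on the log2 scale in TpitHT, and 0.49 and 0.42 higher in TpitWT. The members' median log2 ratios were 1.37 and 1.67 in TpitHT and 1.01 and 1.44 in TpitWT. The cluster 6 calls in TpitWT were the weakest: Nr4a1 had a log2 ratio of 1.15 and Nr4a2 of 1.01. With hormone and mitochondrial genes left out of the totals these were short of 2-fold, at 0.69 and 0.55. The authors' scaled counts were averaged here over the other clusters, each counted once whatever its number of cells. By them Egr3 in cluster 6 had log2 ratios of 0.06 in TpitHT and 0.60 in TpitWT, against 1.37 and 2.02 by CPM. Among clusters of at least 50 cells, cluster 6 ranked 6 of 15 for Egr3 in TpitHT, at 11.4 CPM, and 5 of 16 in TpitWT, at 20.4 CPM. The median over those clusters was 7.59 CPM in TpitHT and 12.8 CPM in TpitWT. The mean of the scaled counts also takes in clusters of very few cells. In TpitHT, counts of clusters 18 and 20, with 2 cells each, were multiplied by 101 and 50.1, against 0.0198 for cluster 0. The same setting took Nr4a1 in cluster 7 of TpitWT to 0.98 and Nr4a3 in cluster 7 of TpitHT to 0.33.

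Between the 2 clusters, Egr3 and Egr4 set melanotrope-like cells apart from corticotrope-like cells. Egr4 was at 535 CPM in cluster 7 and 75.3 CPM in cluster 6 of TpitHT, and at 548 and 57.2 CPM in clusters 7 and 6 of TpitWT. The ratios were 7.11 (6.57 to 7.70) in TpitHT and 9.59 (8.69 to 10.6) in TpitWT. Egr3 was at 197 CPM in cluster 7 and 11.4 CPM in cluster 6 of TpitHT, a 17.3-fold ratio (14.3 to 21.2). In TpitWT it was at 206 CPM in cluster 7 and 20.4 CPM in cluster 6, a 10.1-fold ratio (8.57 to 11.9). These were the 2 members called in each library, where 6.74% (TpitHT) and 6.58% (TpitWT) of all genes were higher in cluster 7. Nr4a1 differed by less between the clusters, with ratios of 0.964 (0.917 to 1.01) in TpitHT and 1.22 (1.14 to 1.31) in TpitWT. Egr4 was also among the 10 genes that led cluster 7 as the authors' clustering defined it, so its level there is not independent of the clusters.

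The shares of cells with at least 1 count followed the CPM values. In TpitHT, 80.2% of cluster 7 cells had an Egr4 count (77.1% to 83.0%), against 17.9% of cluster 6 cells and 3.66% of other cells. In TpitWT these shares were 75.1% in cluster 7, 12.3% in cluster 6 and 3.04% in other cells. For Egr3 they were 61.5%, 5.79% and 2.46% in clusters 7, 6 and other cells of TpitHT, and 56.2%, 7.86% and 2.40% in TpitWT. Mean depth was 11452 counts per cell in cluster 7, 9256 in cluster 6 and 12141 in other TpitHT cells, and 8380, 7376 and 9903 in TpitWT. The other cells pool clusters with means from 4331 to 17341 counts per cell in TpitHT and from 3610 to 14213 in TpitWT, and the shares were not compared at equal depth. Cells with an Egr4 count also held more of it in cluster 7, with means of 7.64 counts in TpitHT and 6.12 in TpitWT, against 3.89 and 3.43 in cluster 6 of TpitHT and TpitWT.

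**Figure D2:**
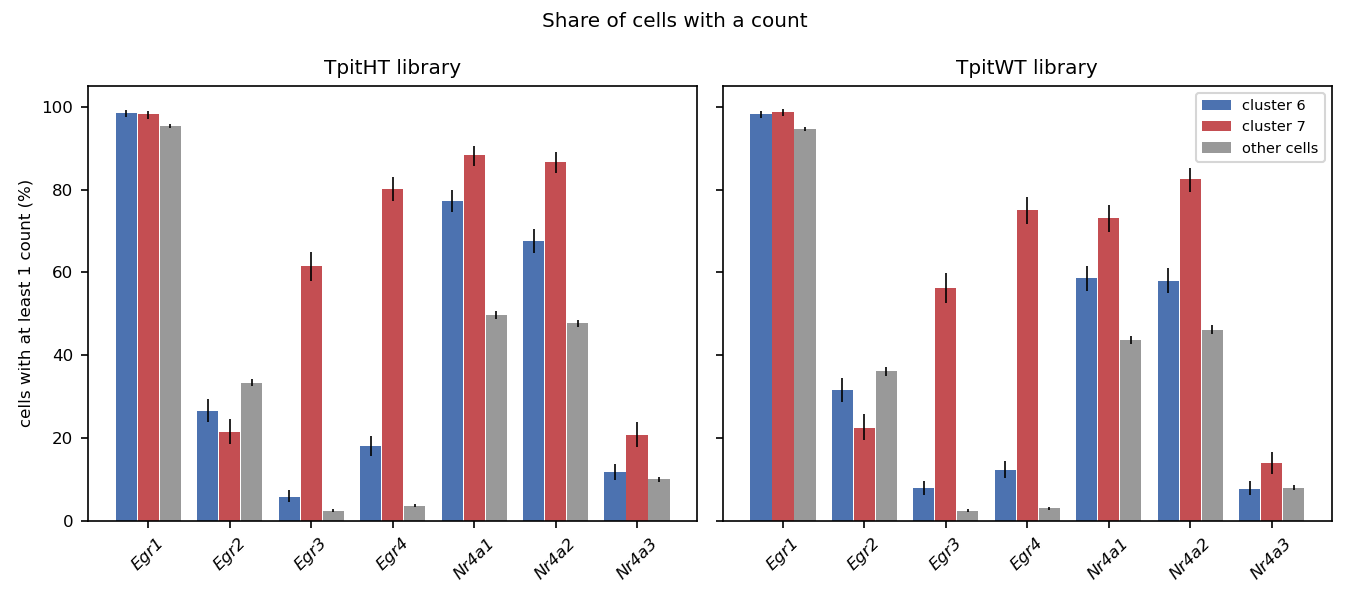
Share of cells with at least 1 count of each gene, in percent, for cluster 6, cluster 7 and the other cells of the TpitHT (left) and TpitWT (right) libraries; bars are shares and whiskers exact 95% binomial intervals. Egr4 reaches 80.2% and 75.1% of cluster 7 cells, while Egr1 is above 94% in all cell groups shown.

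Egr4 was near 0 in several clusters. In cluster 2 it was at 0.717 CPM in TpitHT and 0.913 CPM in TpitWT, and in cluster 1 at 1.03, 1.57 and 0.650 CPM in TpitKO, TpitHT and TpitWT. Cluster 8 had 0.516, 1.84 and 1.80 CPM in TpitKO, TpitHT and TpitWT, and cluster 5 had 0.728 CPM in TpitKO. The endothelial-like cluster 9 was among them. Egr4 had 1 count in 552 TpitKO cells, 3 counts in 281 TpitHT cells and 0 counts in 207 TpitWT cells of this cluster. The exact 95% interval of the 0 in TpitWT reached 4.94 CPM, and 3 counts, the usual limit for a count of 0, would be 4.02 CPM, at a mean depth of 3610 counts per cell. In TpitHT, 1.07% of cluster 9 cells had an Egr4 count (0.221% to 3.09%), at 4343 counts per cell. Pomc was at 10.7, 1295 and 3212 CPM in the same TpitKO, TpitHT and TpitWT cells, and the part of free RNA in these Egr4 counts was not tested.

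Egr1, the member with counts in nearly every cell, did not mark the 2 clusters. Egr1 was at 1076 CPM in cluster 6 and 894 CPM in cluster 7, against 809 CPM in other TpitHT cells, and at 1128 and 1095.5 CPM in clusters 6 and 7, against 863 CPM in other TpitWT cells. With the authors' scaled counts, averaged over clusters of any size as above, all 4 of these differences turned to the other side of 0. Its highest level was in cluster 9, at 1798.5, 1586.5 and 1793 CPM in TpitKO, TpitHT and TpitWT. The lowest was 345 CPM in cluster 16 of TpitKO, 400.0 CPM in cluster 1 of TpitHT and 275 CPM in cluster 16 of TpitWT. Cluster 16 is lymphoid-like and cluster 1 is led by Gh. In the gonadotrope-like cluster 3, where Egr1 is a known activator of Lhb, Egr1 was at 999.9, 894 and 1078.5 CPM in TpitKO, TpitHT and TpitWT. Those levels lay near the median over clusters, which was 1058, 894 and 1087 CPM.

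Egr2, known for its part in myelinating Schwann cells and hindbrain patterning, was lower in cluster 7 than in other cells but missed the 2-fold line. It was at 35.7 CPM in cluster 7 and 68.8 CPM in other TpitHT cells, and at 49.5 CPM in cluster 7 and 89.2 CPM in other TpitWT cells. The somatotrope-like cluster 2 held more, with 102 CPM in TpitHT and 133 CPM in TpitWT, and Egr2 counts in 57.2% and 61.3% of its TpitHT and TpitWT cells. Cluster 2 had only 17 TpitKO cells. Cluster 5, with 2 of 5 somatotrope markers and 2457 TpitKO cells against 24 and 28 in TpitHT and TpitWT, had 147 CPM in TpitKO. A cluster drawn mostly from 1 library may stand for that library and not for a cell type. The thyrotrope-like cluster 14 had the least Egr2, with 12.7, 3.48 and 19.2 CPM in TpitKO, TpitHT and TpitWT, on 21, 2 and 17 counts.

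Nr4a3, the third orphan receptor, was highest outside clusters 6 and 7. In cluster 12, which is led by hemoglobin genes and Prl, it was at 40.9, 64.6 and 38.7 CPM in TpitKO, TpitHT and TpitWT. In the stem-cell-like cluster 10 it was at 48.5, 50.8 and 33.2 CPM. Cluster 7 had 31.4 CPM in TpitHT and 25.7 CPM in TpitWT, and cluster 6 had 22.7 and 15.8 CPM. The highest TpitKO value was that of cluster 17, at 59.55 CPM (34.7 to 95.3). Neighbouring intervals overlapped in 14 of 15 steps of the order for TpitKO, 12 of 14 for TpitHT and 15 of 15 for TpitWT. Most neighbouring ranks for Nr4a3 were thus not resolved. In TpitHT, though, cluster 10 lay above cluster 7, and cluster 7 above cluster 6, with separate intervals. In TpitWT the intervals of cluster 12 (23.7 to 59.8 CPM) and cluster 7 (21.8 to 30.0 CPM) overlapped. For Egr4 in TpitHT, cluster 7 stood at 535 CPM and cluster 11 at 115.5 CPM (93.3 to 141). Their intervals were apart from each other and from that of cluster 6, at 75.3 CPM (69.9 to 81.0). In TpitWT cluster 7 was again apart, but the Egr4 intervals of cluster 11 (59.4 to 127 CPM) and cluster 6 (52.1 to 62.7 CPM) overlapped. Neighbouring Egr4 intervals overlapped in 8 of 14 steps for TpitHT, 13 of 15 for TpitKO and 13 of 15 for TpitWT. Cluster 12 was also high in Nr4a2, with 595, 482.5 and 434 CPM in TpitKO, TpitHT and TpitWT.

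Between the TpitHT and TpitWT libraries no member was called in clusters 6 and 7: 0 of 7 in cluster 6, where 2.15% of all genes were called higher or lower, and 0 of 7 in cluster 7, against 2.17%. The widest differences were those of Nr4a1 in cluster 6, at 353 CPM in TpitHT and 216 CPM in TpitWT, a ratio of 1.63 (1.54 to 1.73), and of Egr3 there, at 11.4 and 20.4 CPM, a ratio of 0.556 (0.432 to 0.712). In counts per cell the Nr4a1 difference passed 2-fold, with a log2 ratio of 1.03, at mean depths of 9256 counts per cell in TpitHT and 7376 in TpitWT. In cluster 7, Egr4 differed by a ratio of 0.976 (0.933 to 1.02) and Egr3 by 0.954 (0.886 to 1.03).

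TpitKO had no cells in clusters 6 and 7, and Egr3 and Egr4 were lower in that library as a whole. Egr4 had 17.96, 42.6 and 41.6 CPM over all cells of the TpitKO, TpitHT and TpitWT libraries, and Egr3 had 8.28, 14.9 and 16.99 CPM. Outside clusters 6 and 7 both genes were highest in TpitKO. There Egr4 was at 17.96 CPM in TpitKO, against 9.51 CPM in TpitHT and 7.05 CPM in TpitWT, and Egr3 was at 8.28 CPM in TpitKO, against 3.80 CPM in TpitHT and 4.27 CPM in TpitWT. The makeup of the libraries differed as well, and its part was not tested: the gonadotrope-like cluster 3, with Egr4 at 39.1, 42.2 and 38.2 CPM, held 1662 TpitKO, 630 TpitHT and 449 TpitWT cells. Cluster 11, with Egr4 at 64.4, 115.5 and 88.6 CPM, held 871, 107 and 53 cells. Of the 2393 Egr4 counts of TpitKO, 835 were in cluster 3, 870 in cluster 0 and 408 in cluster 11.

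Within the lactotrope-like cluster 0, the largest in all 3 libraries, Egr4 and Nr4a2 were higher in TpitKO. Egr4 was at 29.6 CPM in TpitKO, 12.04 CPM in TpitHT and 10.16 CPM in TpitWT, and 8.87%, 4.55% and 3.97% of the cells had a count. The ratio of TpitKO to TpitWT was 2.91 (2.55 to 3.33) and to TpitHT 2.46 (2.21 to 2.73). Nr4a2 was at 468, 211 and 263 CPM in TpitKO, TpitHT and TpitWT, a ratio of 1.78 (1.73 to 1.83) to TpitWT and 2.21 (2.16 to 2.27) to TpitHT. Nr4a1 was at 201, 139 and 127 CPM, and Nr4a3 at 36.7, 20.2 and 23.0 CPM. Mean depth was 9320, 11496 and 9014 counts per cell. With a pseudocount of 10 CPM the Egr4 log2 ratio to TpitWT was 0.97, short of 2-fold.

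Few genes differed that much between libraries in cluster 0. Egr4 was the 1 member of 6 tested that was called against TpitWT, where 1.05% of all genes were called. Egr4 and Nr4a2 were the 2 of 6 called against TpitHT, where 0.550% of all genes were. Between TpitHT and TpitWT it was 0 of 6, against 0.108% of all genes. The summed level of 31 AP-1 and other immediate early genes was 20790 CPM in TpitKO, 15927 CPM in TpitHT and 17530 CPM in TpitWT, with 0 of 26 tested called against TpitWT. Against TpitHT 2 of 26 were called, both higher, in the comparison in which Egr4 and Nr4a2 were called as well. They were Fosl2, an AP-1 subunit, at 82.7 CPM in TpitKO and 39.8 CPM in TpitHT, and Klf4, a zinc-finger factor, at 52.5 CPM in TpitKO and 17.65 CPM in TpitHT. The summed heat shock list was 5444, 6255 and 5932 CPM in TpitKO, TpitHT and TpitWT. Hspa1a, at 308, 249 and 137 CPM, and Hspa1b, at 179, 138 and 77.6 CPM, were the 2 of 12 called higher against TpitWT, and 0 of 12 were called against TpitHT. The part of tissue handling in the Egr4 and Nr4a2 values was not tested.

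In cluster 1, led by Gh, Nr4a2 was at 179 CPM in TpitKO, 109 CPM in TpitHT and 95.7 CPM in TpitWT. Its ratios were 1.87 (1.74 to 2.01) to TpitWT and 1.65 (1.54 to 1.76) to TpitHT, so 0 of 5 members tested were called against TpitWT (3.41% of all genes) and 0 of 5 against TpitHT (3.27%). Cluster 5 of TpitKO, at 165 CPM, set against cluster 2, at 101 CPM in TpitHT and 97.1 CPM in TpitWT, gave ratios of 1.63 and 1.70 for Nr4a2. In cluster 3 Nr4a2 was at 137, 79.4 and 122 CPM in TpitKO, TpitHT and TpitWT, where TpitHT and not TpitKO was the library that stood apart. None of the 7 members was called there against TpitWT (2.54% of all genes) or TpitHT (1.83%). In cluster 4, led by Prl, Egr4 was at 9.86 CPM in TpitKO, 3.77 CPM in TpitHT and 5.34 CPM in TpitWT. It was the 1 member of 6 called against TpitHT (0.700% of all genes), while 0 of 6 were called against TpitWT (0.925%). Between TpitHT and TpitWT no member was called in cluster 1 (0 of 4, 0.450% of all genes), cluster 3 (0 of 7, 0.824%) or cluster 4 (0 of 6, 0.384%).

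**Figure D3:**
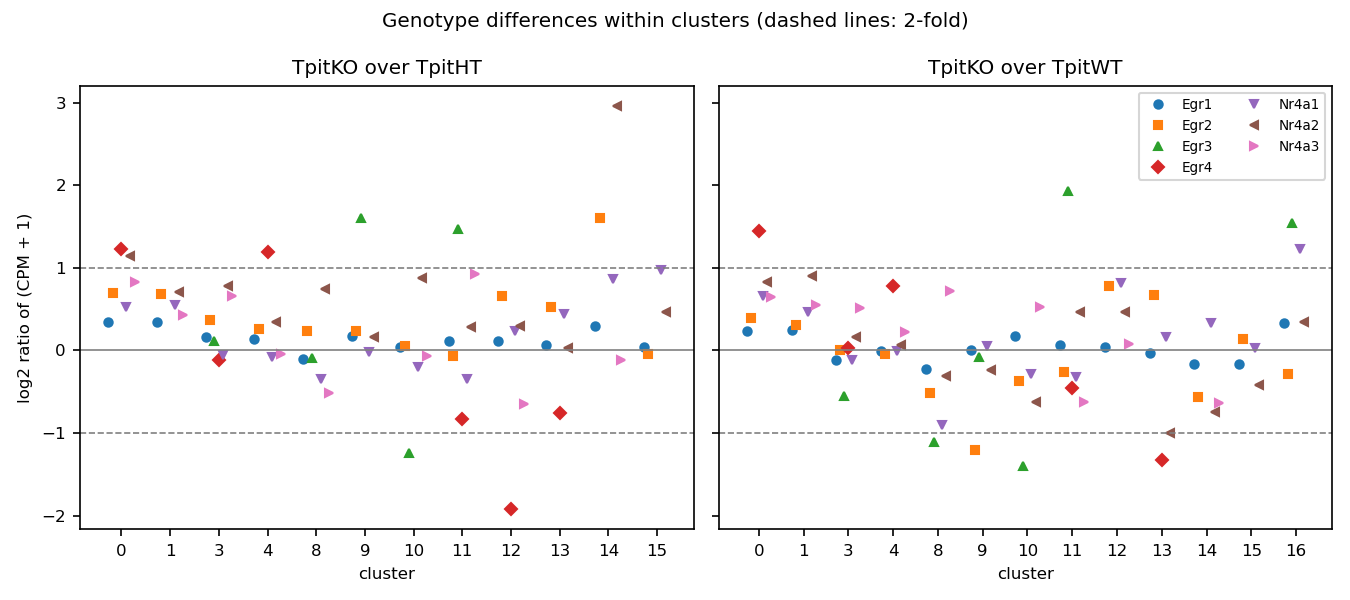
Log2 ratio of CPM + 1 of TpitKO over TpitHT (left) and TpitKO over TpitWT (right) for each gene that passed the filter, by cluster with at least 50 cells on both sides; 1 library per genotype, and dashed lines at 2-fold. Egr4 in cluster 0 stands at 1.23 and 1.45 in the 2 panels and Egr1 lies between -0.22 and 0.35 over the clusters.

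Egr3 differed between TpitKO and the other libraries in opposite directions in 2 clusters. In the stem-cell-like cluster 10 it was lower, at 9.86 CPM in TpitKO, 24.6 CPM in TpitHT and 27.7 CPM in TpitWT, on 24, 59 and 41 counts. In cluster 11, led by Klk1 and Cck, it was higher, at 49.4 CPM in TpitKO, 17.2 CPM in TpitHT and 12.2 CPM in TpitWT, on 313, 14 and 4 counts. Cluster 11 had 107 TpitHT and 53 TpitWT cells only, and its Pomc level was 196 CPM in TpitKO, 33462 CPM in TpitHT and 19954 CPM in TpitWT. The part of that difference in the Egr3 values was not tested. In cluster 10 Egr3 was 1 of 6 members called against TpitWT (5.00% of all genes) and 1 of 6 against TpitHT (4.62%). In cluster 11 it was 1 of 7 against TpitWT (20.3%), a share at which a single call of 7 is no more than the background. With a pseudocount of 10 CPM the cluster 10 log2 ratio to TpitWT was -0.93, short of 2-fold. Between TpitHT and TpitWT, 1 of 6 members was called in cluster 10 (4.40% of all genes), Nr4a2 at 18.7 and 54.8 CPM, and 0 of 5 in cluster 11 (11.4%).

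Cluster 11 was the cell group of TpitKO with the most Egr4. Against the other TpitKO cells it had Egr4 at 64.4 and 15.6 CPM, a ratio of 4.12 (3.69 to 4.58), and Egr3 at 49.4 and 6.22 CPM, a ratio of 7.94 (6.94 to 9.06). They were the 2 members of 7 called, where 12.6% of all genes were higher. Of cluster 11 cells, 13.8% had an Egr4 count, against 5.43% of other TpitKO cells, at mean depths of 7272 and 10120 counts per cell. Its Tbx19 level was 13.6 CPM in TpitKO, against 76.2 CPM in TpitHT and 61.1 CPM in TpitWT. Set beside the melanotrope-like cluster 7, Egr4 in TpitKO cluster 11 was at 0.120 times the level in TpitHT and 0.118 times that in TpitWT. The corticotrope-like cluster 6 had Egr4 at 75.3 CPM in TpitHT and 57.2 CPM in TpitWT, ratios of 0.855 (0.756 to 0.967) and 1.13 (0.983 to 1.29).

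In the smaller clusters, 0 to 2 members were called against TpitWT, several of them on few counts. In the macrophage-like cluster 8 Egr3 was lower, at 5.68 CPM in TpitKO and 13.5 CPM in TpitWT on 11 and 15 counts, 1 of 6 members where 7.35% of all genes were called. TpitHT, at 6.12 CPM, lay beside TpitKO, and 0 of 6 members were called against it (5.75%). In cluster 9 Egr2 was lower, at 24.3 CPM in TpitKO and 57.6 CPM in TpitWT, 1 of 5 members (10.3% of all genes), and TpitHT at 20.5 CPM lay beside TpitKO. Egr3 in cluster 9 was at 52.0 CPM in TpitKO, 16.4 CPM in TpitHT and 54.9 CPM in TpitWT, the 1 member of 5 called against TpitHT (5.86%). In cluster 13 Egr4 was lower, at 17.04 CPM in TpitKO and 44.3 CPM in TpitWT on 15 and 25 counts, 1 of 5 members (8.60%), while 0 of 5 were called against TpitHT (7.24%). In the lymphoid-like cluster 16 Egr3 and Nr4a1 were higher, at 41.9 and 156 CPM in TpitKO, against 13.7 and 65.9 CPM in TpitWT, 2 of 5 members (23.6%).

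In the other small clusters no member was called against TpitWT, but some were against TpitHT. In cluster 12 it was 0 of 5 against TpitWT (13.6% of all genes) and 1 of 6 against TpitHT (14.4%). That was Egr4, at 6.82 CPM in TpitKO, 28.5 CPM in TpitHT and 3.87 CPM in TpitWT, on 16, 15 and 2 counts. In cluster 14 it was 0 of 5 against TpitWT (7.71%) and 2 of 5, both higher, against TpitHT (10.4%). Those were Egr2, with the values given above, and Nr4a2, at 33.9 CPM in TpitKO, 3.48 CPM in TpitHT and 57.6 CPM in TpitWT, on 56, 2 and 51 counts. TpitHT, with 52 cells, was thus the library that stood apart there. In the fibroblast-like cluster 15 it was 0 of 4 against TpitWT (14.5%) and 0 of 4 against TpitHT (10.7%).

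TpitHT and TpitWT, both with cells in clusters 6 and 7, also differed in some small clusters. In cluster 8, 3 of 6 members were called, where 6.04% of all genes were. Egr3 was at 6.12 CPM in TpitHT and 13.5 CPM in TpitWT, Nr4a2 at 25.7 and 54.7 CPM, and Nr4a3 at 20.2 and 8.08 CPM in TpitHT and TpitWT. In cluster 9 Egr2 and Egr3, with the values above, were the 2 of 5 called lower in TpitHT (9.01%). Nr4a2 was the 1 of 5 called in cluster 13 (7.84%), at 93.7 CPM in TpitHT and 191.5 CPM in TpitWT, and the 1 of 4 called in cluster 14 (8.74%). No member was called in cluster 12 (0 of 5, 11.9%) or cluster 15 (0 of 4, 12.4%).

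Many genes on a list of cyclic AMP and CREB target genes were also higher in clusters 6 and 7. The list was chosen with earlier results of these data known. Besides target genes it held Creb1 and Crtc2, parts of the CREB pathway itself, and Pcsk1, which encodes a prohormone-processing enzyme. Of 15 tested, 8 were at least 2-fold higher and 0 lower in cluster 6 of TpitHT, where 9.95% of all genes were higher and 6.25% lower. In cluster 7 of TpitHT it was 9 higher and 0 lower, against 10.1% and 6.32% of all genes. In TpitWT it was 7 higher and 1 lower in cluster 6, against 13.3% and 5.43% of all genes, and 6 higher and 0 lower in cluster 7, against 12.6% and 5.44%. The lists' median log2 ratios were 1.42 and 1.22 in clusters 6 and 7 of TpitHT and 0.86 and 0.78 in TpitWT, beside the medians of all genes given above. Gem, a small GTPase that dampens calcium channels, was at 174 CPM in cluster 6 and 369 CPM in cluster 7, against 22.6 CPM in other TpitHT cells. In TpitWT it was at 81.5 CPM in cluster 6 and 339 CPM in cluster 7, against 34.4 CPM in other cells. Crem, which encodes the repressor that ends cyclic AMP responses, was at 207 CPM in cluster 6 and 152 CPM in cluster 7, against 50.9 CPM in other TpitHT cells. Sik1, a kinase that turns off CREB coactivators, was called in cluster 7 and not in cluster 6, at 39.6 and 11.7 CPM in clusters 7 and 6, against 8.09 CPM in other TpitHT cells. Pde10a, a phosphodiesterase, was at 432 and 472 CPM in clusters 6 and 7 of TpitHT, against 153 CPM in other cells.

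The broader list of AP-1 and other immediate early genes, which shares Gem, Fosb, Dusp1 and Nfil3 with the cyclic AMP list, was mixed. In cluster 6 it had 7 higher and 5 lower of 30 tested in TpitHT, and 5 higher and 5 lower of 29 in TpitWT. In cluster 7 it had 8 higher and 5 lower of 30 in TpitHT, and 5 higher and 5 lower of 29 in TpitWT. Of all genes, 9.95% were higher and 6.25% lower in cluster 6 of TpitHT and 13.3% and 5.43% in TpitWT, and in cluster 7 it was 10.1% and 6.32% in TpitHT and 12.6% and 5.44% in TpitWT. Its most abundant genes, Fos, Junb, Btg2 and Ier2, were called in neither cluster, with Fos at 3355.5 CPM in cluster 6 and 3029 CPM in cluster 7, against 2360 CPM in other TpitHT cells. Atf3, a stress-induced repressor, was higher in both clusters, at 134 and 304 CPM in clusters 6 and 7, against 55.6 CPM in other TpitHT cells. Klf2, a factor of endothelial cells and lymphocytes, was lower, at 3.13 and 3.58 CPM, against 53.9 CPM. Ier5 was higher in cluster 7, at 79.5 CPM against 31.4 CPM in other TpitHT cells and 91.9 CPM against 32.9 CPM in other TpitWT cells, and in cluster 6 of TpitWT it was lower, at 10.16 CPM.

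Partners and upstream receptors had genes called on both sides, and few stress genes were called. Nab1 and Nab2, corepressors that bind Egr proteins, were each called higher in both clusters and both libraries. The calls in cluster 7 of TpitWT lay close to the 2-fold line. Their log2 ratios there were 1.04 for Nab1 and 1.02 for Nab2, where the median gene was 0.42 higher. Nab2 was at 37.7 CPM in cluster 6 and 44.1 CPM in cluster 7, against 12.1 CPM in other TpitHT cells. In TpitWT Nab2 was at 21.8 CPM in cluster 6 and 17.98 CPM in cluster 7, against 8.34 CPM in other cells. In cluster 7 it was called higher in TpitHT than in TpitWT, at a ratio of 2.455 (1.98 to 3.07), where 2.17% of all genes were called. The difference was not particular to cluster 7. The same ratio was 1.97 in cluster 0 and 1.73 in cluster 6, both short of 2-fold, and 1.15 in cluster 1. The list of partners held 2 higher and 2 lower of 12 in cluster 6, and 3 higher and 1 lower of 12 in cluster 7, in each library. In these comparisons 9.95% to 13.3% of all genes were higher and 5.43% to 6.32% lower, so counts this small are not a result about the list. Rxrg, a dimer partner of Nr4a receptors, was lower, at 2.40 and 0.954 CPM in clusters 6 and 7, against 21.4 CPM in other TpitHT cells. Tle3, on the same list, was called lower in cluster 6 and higher in cluster 7. It was at 0.625 and 36.0 CPM in clusters 6 and 7 of TpitHT, against 6.37 CPM in other cells. In TpitWT it was at 0.753 and 25.5 CPM, against 6.37 CPM. Of upstream receptors, 4 were higher and 4 lower of 11 in cluster 6 of each library. In cluster 7 it was 1 higher and 3 lower of 9 in TpitHT and 2 higher and 3 lower of 9 in TpitWT. The clusters differed in them: Avpr1b was at 69.6 CPM in cluster 6 and 0.835 CPM in cluster 7 of TpitHT, and Drd2 at 152 CPM in cluster 7 and 1.46 CPM in cluster 6. Both genes were also among the markers by which the clusters were named. Nr3c1, the glucocorticoid receptor that mediates feedback, was at 7.75 CPM in cluster 7 and 164 CPM in cluster 6 of TpitHT, and at 11.4 and 244 CPM in TpitWT. Of 12 heat shock genes, 1 was higher and 1 lower in cluster 6 of TpitHT, 0 in cluster 7, and in TpitWT 2 and 3 were higher in clusters 6 and 7, counts to be read against the same shares of all genes. The list's summed level was 6733 and 6207 CPM in clusters 6 and 7, against 4497 CPM in other TpitHT cells, and 7265 and 6756 CPM, against 4010 CPM in TpitWT, and its part in the members' levels was not tested.

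**Figure D4:**
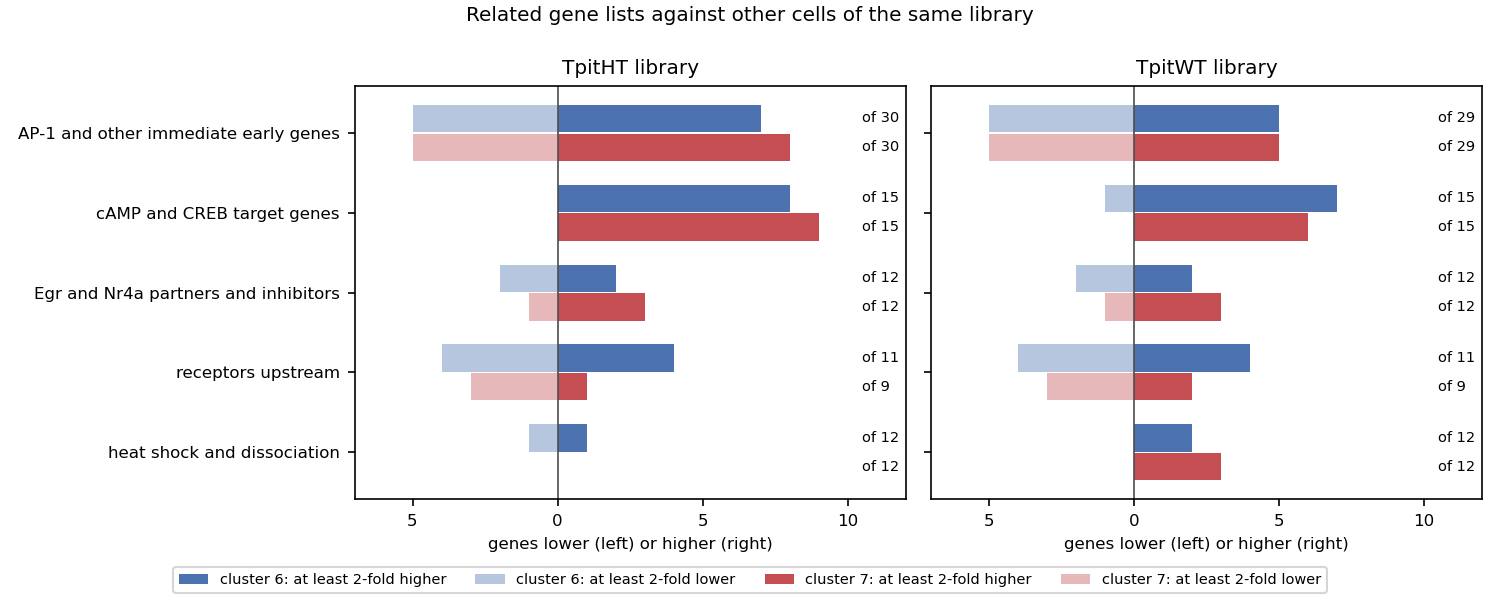
Number of genes of each related list at least 2-fold higher (right of 0) or lower (left of 0) in clusters 6 and 7 than in other cells of the TpitHT and TpitWT libraries, with the number tested at the right. The cyclic AMP list has 8 and 9 higher and 0 lower in TpitHT, while the immediate early list has genes on both sides.

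The 2 known target genes, Pomc and Lhb, were themselves among the markers by which clusters 6, 7 and 3 were named. Their levels there are thus a description only. Pomc was at 150376 CPM in cluster 6 and 223310 CPM in cluster 7 of TpitHT, against 928 CPM in other cells. In TpitWT it was at 130531 and 195848 CPM in clusters 6 and 7, against 1126 CPM in other cells. Lhb was at 11247, 14751 and 12715 CPM in cluster 3 of TpitKO, TpitHT and TpitWT. Hormone and mitochondrial genes together took 25.7% of the counts in cluster 7 of TpitHT, 24.5% in TpitWT and 70.7% in cluster 1 of TpitHT, which lowers the CPM of all other genes in those cells.

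Levels of the members were compared over 47 combinations of genotype and cluster with at least 50 cells. Pearson's r of log2(CPM + 1) was highest for Egr4 and Nr4a1 (0.67), Nr4a1 and Nr4a2 (0.61), Egr3 and Nr4a1 (0.60) and Egr4 and Nr4a2 (0.60). For Egr1 with Nr4a2 and Nr4a3 it was 0.05 and -0.02. The combinations share libraries, depth and clusters, so no p-value is given. Among 15397 genes with at least 500 counts, those most like Egr1 included Fos (0.838) and Atf4 (0.836). Those most like Egr2 were Fosb (0.649), Gm43361 (0.643) and Btg2 (0.640), and those most like Egr3 were Gm42892 (0.738), Pcdh17 (0.727) and Chn2 (0.723). Egr4 was most like Dll3 (0.843), Cryba2 (0.839) and Zranb3 (0.821). Genes most like Nr4a1 included Chd7 (0.762) and Per1 (0.733), Nr4a2 was most like 1700016P03Rik (0.876), Dusp26 (0.807) and Gm43580 (0.762), and Nr4a3 most like Lrp1b (0.709), Crb1 (0.690) and Psen2 (0.672).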

How the data were processed

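The authors deposited a raw count for each of 55403 rows in each of 61 combinations of genotype and cluster, added up over cells. They also deposited the same sums times 1 factor per combination (unit signal, used only as an alternative), and quantities recorded as other: the number of cells with a count and the cluster of each barcode. Tools and builds named in the submitters' processing notes, without roles, are Seurat 3.1, Cell Ranger 5, DESeq2, mm10 and GRCm38. Whether counts are collapsed molecules is not given in the sources used here; if they are reads, the intervals are too narrow. No counts per cell were used, so cells were not thinned to equal depth and doublets were not treated further.

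Rows sharing a symbol were added (110 rows). CPM is relative to all counts of the combination. The log2 ratios used a pseudocount of 1 CPM. Intervals are exact Poisson for CPM, Clopper-Pearson for shares, and conditional binomial for ratios. Gene coordinates were identical to GENCODE M21 for all 7 members. Every member is described. List genes named were the 4 most abundant in clusters 6 and 7 and any at least 2-fold apart, and for each member the 3 genes with the highest r, of which 2 are not reported here. The members and lists were chosen with earlier results of these data known. Calls were checked on counts simulated with counting error only. These held no variation between mice, preparations or cells, so the check covers the calculation and not whether a call would recur. Alternatives were another pseudocount, totals without hormone and mitochondrial genes, counts per cell, the scaled counts, the median of other clusters, no filter, and TpitHT in place of TpitWT. Python 3.11.15, numpy 2.4.6, pandas 2.3.3, scipy 1.17.1 and matplotlib 3.10.9 were used.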

Additional observations from a re-analysis of the deposited data

Results flagged for a closer look

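Egr3 lay on opposite sides of 0 in 2 clusters under the same contrast. The log2 ratio of TpitKO over TpitWT was -1.40 in the stem-cell-like cluster 10 and 1.93 in cluster 11. Over TpitHT, with the same TpitKO library, the log2 ratios were -1.24 and 1.47. The difference between the clusters was not tested, since each genotype had 1 library. The values rest on 24 TpitKO and 41 TpitWT counts in cluster 10 and on 313 and 4 counts in cluster 11.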

How the results depend on the processing

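No paired analysis was possible because there was 1 library per genotype, and for the same reason no replicate could be left out. Of the members in cluster 6 of TpitWT, 2 were at least 2-fold higher with hormone and mitochondrial genes out of the totals, 2 in counts per cell, 1 with the authors' scaled counts and 2 against the median of other clusters, instead of 4. The 4 member and cluster pairs higher in TpitKO than in TpitWT became 7 with TpitHT in place of TpitWT. The 4 lower pairs became 1 with a pseudocount of 10 CPM, 2 in counts per cell, 9 with no filter and 2 against TpitHT. The immediate early genes higher in cluster 6 of TpitHT numbered 4 with a pseudocount of 10 CPM and 4 without hormone genes, instead of 7; in cluster 6 of TpitWT 3 and 2, instead of 5; and in cluster 7 of TpitHT 5 without hormone genes, instead of 8. Of the 21 genes most like a member, 7 stayed with Spearman's correlation and 10 with combinations of at least 100 cells. Egr3 and Egr4 in cluster 7 were called under every setting run, in both libraries. Counting depth limits the values of clusters under 100 cells, some of which rest on 2 to 25 counts.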
